A study of Mus musculus with 5 samples.

Results

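Ms4a1, Cd79a, Cd79b, Cd22, Cd72, Cd37, Cd38 and Vpreb3, 8 genes whose products sit at the B cell surface or with the B cell receptor, were followed in plasma cells of mouse spleen and bone marrow. They were taken by symbol, and all 8 were found among the 33456 genes of the count tables. Plasma cells, the last stage of B cell development, secrete antibody. The study sorted them by organ, by B220, a form of the surface phosphatase CD45 (gene Ptprc), and by how much they took up of 2NBDG, a glucose analog that fluoresces. There were 5 groups with 1 single-cell library each: B220-2NBDG+ cells of bone marrow, and from spleen B220+2NBDG+ and B220+2NBDG- cells together with B220-2NBDG+ and B220-2NBDG- cells. Per the labels, all groups came from untreated, unimmunized male C57Bl6/N mice aged 8 to 12 weeks, with cells of 3 mice pooled, and were sorted in 2 rounds as CD138-high cells without Ly6g and CD11c. No label says which mice gave which library. Below, splenic groups are called by their gate alone and bone marrow B220-2NBDG+ cells are called bone marrow cells.

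The B cell receptor is a membrane antibody held by the signalling pair Igα (Cd79a) and Igβ (Cd79b), whose tails are phosphorylated when antigen binds. CD22, a sialic-acid binding lectin, and CD72, a C-type lectin, damp that signal by recruiting the phosphatase SHP-1 (Ptpn6). CD20 (Ms4a1), a membrane-spanning protein targeted by therapeutic antibodies, and the tetraspanin CD37 organise the B cell membrane. CD38 is an ectoenzyme that consumes NAD, and Vpreb3 encodes a small protein related to the surrogate light chain of precursor B cells. Plasma cells are known for shutting down much of the B cell surface programme, while IgM and IgA plasma cells can keep a membrane receptor.

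The promoter windows of 4 members are shown. Vpreb3 and Cd37 moved in opposite directions in IgA cells, and Cd79a differed from Cd79b in its order across libraries. Cd72 had UMIs almost solely in B220+ libraries, but too few to be tested, and they are not read as expression. Each window runs from 250 bases before to 50 after the RefSeq start site (RefSeq table, GRCm38.p6), 5′ to 3′ on the gene's strand: Vpreb3 at chr10:75948050-75948349 (plus), Cd37 at chr7:45238790-45239089 (minus), Cd79a at chr7:24897247-24897546 (plus) and Cd72 at chr4:43454577-43454876 (minus). Capitals mark matches, on either strand, to an octamer core (ATGCAAA), a PU.1 core (GAGGAAG), an EBF1 core (CCCNNGG) or a Blimp-1 core (GAAAGTG).
Vpreb3: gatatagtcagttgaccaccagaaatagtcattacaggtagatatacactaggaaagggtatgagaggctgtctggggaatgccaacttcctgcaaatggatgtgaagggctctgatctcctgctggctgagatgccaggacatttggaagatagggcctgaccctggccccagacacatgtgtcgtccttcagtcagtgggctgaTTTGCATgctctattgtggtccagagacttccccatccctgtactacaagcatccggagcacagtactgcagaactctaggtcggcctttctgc
Cd37: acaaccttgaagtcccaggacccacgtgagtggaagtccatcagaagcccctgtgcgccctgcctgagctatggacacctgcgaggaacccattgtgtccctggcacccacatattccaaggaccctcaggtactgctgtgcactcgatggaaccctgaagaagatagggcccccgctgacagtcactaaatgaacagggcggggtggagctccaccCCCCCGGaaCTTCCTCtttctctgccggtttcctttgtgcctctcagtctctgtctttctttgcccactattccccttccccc
Cd79a: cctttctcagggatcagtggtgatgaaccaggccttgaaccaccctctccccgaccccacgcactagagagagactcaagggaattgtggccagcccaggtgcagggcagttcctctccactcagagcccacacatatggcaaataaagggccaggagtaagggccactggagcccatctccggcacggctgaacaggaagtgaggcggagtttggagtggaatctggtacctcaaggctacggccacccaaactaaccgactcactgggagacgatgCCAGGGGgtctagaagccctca
Cd72: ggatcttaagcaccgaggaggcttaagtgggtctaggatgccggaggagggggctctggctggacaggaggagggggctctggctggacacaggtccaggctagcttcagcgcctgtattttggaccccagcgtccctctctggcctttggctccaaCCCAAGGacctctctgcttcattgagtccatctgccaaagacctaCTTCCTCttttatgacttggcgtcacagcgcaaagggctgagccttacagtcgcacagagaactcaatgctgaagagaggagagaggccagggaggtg

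Of the 8 members, 6 had a window; Ms4a1 and Cd79b had none. Vpreb3 held 1 match to the octamer, a motif read by Oct family factors in B cells, 44 bases before the start site. That motif occurred in 4.63% of all 32851 windows of the same length. The PU.1 core was found in Cd37, 24 bases before the start, and in Cd72, 48 bases before it, against 13.6% of all windows. The EBF1 core was found in Cd79a, Cd22, Cd72 and Cd37, but 50.7% of all windows hold it. The Blimp-1 core (4.81% of windows) was in no member window, and Cd38 held none of the 4 motifs. No matches overlapped, except among 3 EBF1 matches in Cd22. A match describes letters in a window and was not tested as a binding site.

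The libraries held between 894 and 1296 barcodes, where about 1000 cells per group are stated, and between 9451886 and 15591435 UMIs. After 25 T cell-like barcodes were left out, 5451 cells remained. Immunoglobulin transcripts took between 47.0% and 64.8% of UMIs, so levels are given as CPM, the UMIs of a gene per 1000000 non-immunoglobulin UMIs of its library. Sdc1, which encodes the sorted CD138, lay between 402 and 608 CPM, and the B cell transcription factor Pax5 was at 0 in all 3 B220- libraries. Pax5 was scarce in B220+ cells too. In cells with a Ms4a1 UMI it had 0.475 CPM (B220+2NBDG+) and 0.302 CPM (B220+2NBDG-), and in the other cells of both libraries 0. Such levels rest on too few UMIs to compare cells with and without a Ms4a1 UMI. With 1 library per group, ratios between libraries carry exact 95% intervals for counting error only and have no p. A ratio of at least 2 with 25 CPM and 50 UMIs in the higher library was called. Rps18-ps3 set B220+2NBDG- and splenic B220-2NBDG+ cells (272 and 85.3 CPM) apart from the other 3 libraries (4.74 to 12.4 CPM). Nme2 was lower in those 2 libraries (26.6 and 53.3 CPM) than in the other 3 (179 to 306 CPM). For none of the 8 members did those 2 libraries lie outside the range of the other 3, a check that can miss smaller shifts. Each comparison between libraries below sets 1 of those 2 against 1 of the other 3. A difference by gate or organ therefore cannot be told apart from this split. Only 11 barcodes occurred in more than 1 library, at most 4 per pair.

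The signalling pair gave the most UMIs of the 8 genes in every library. Cd79a (chr7:24897381-24902197, GRCm38) stood at 1809 CPM in bone marrow cells, 1523 CPM in B220+2NBDG+, 1068 CPM in B220+2NBDG-, 1443 CPM in splenic B220-2NBDG+ and 1296 CPM in B220-2NBDG- cells. Over all cells its order ran from bone marrow down to B220+2NBDG-, and no neighbouring intervals overlapped. By isotype, bone marrow was highest within IgA cells alone, at 2265 CPM. Within IgM and IgG cells B220+2NBDG+ was highest, at 1327 and 1644 CPM against 1251 and 1219 CPM in bone marrow. Without its cycling cells, B220+2NBDG- had 1313 CPM. Cd79b (chr11:106311341-106314762) stood at 491 CPM in bone marrow cells, 1017 CPM in B220+2NBDG+, 879 CPM in B220+2NBDG-, 625 CPM in splenic B220-2NBDG+ and 769 CPM in B220-2NBDG- cells. Both B220+ libraries were above all B220- libraries for Cd79b, although without Jchain in the total the ratio of B220+2NBDG- to B220-2NBDG- was 0.977, and again no neighbours overlapped; the partners therefore had different orders, with bone marrow highest for Cd79a and lowest for Cd79b.

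Ms4a1 (chr19:11249675-11266241), the CD20 gene, varied more. It had 70.3 CPM in bone marrow cells, 115 CPM in B220+2NBDG+, 154 CPM in B220+2NBDG-, 96.0 CPM in splenic B220-2NBDG+ and 219 CPM in B220-2NBDG- cells. Over all cells, both 2NBDG- libraries were above all 2NBDG+ libraries. Among neighbours the intervals of B220+2NBDG+ and splenic B220-2NBDG+ cells alone touched. Within IgG cells the 2NBDG- libraries were again higher (201 and 200 CPM against 145 to 150 CPM). Within IgM cells bone marrow (136 CPM) was level with B220+2NBDG- (135 CPM), and within IgA cells B220+2NBDG+ was highest, at 73.8 CPM. Cd37 (chr7:45233632-45239115) had 113 CPM in bone marrow cells, 162 CPM in B220+2NBDG+, 179 CPM in B220+2NBDG-, 129 CPM in splenic B220-2NBDG+ and 156 CPM in B220-2NBDG- cells. It was the flattest member: the intervals of both B220+ libraries overlapped, as did those of B220+2NBDG+ with B220-2NBDG- cells and of splenic B220-2NBDG+ with bone marrow cells.

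Vpreb3 (chr10:75943057-75949657) had 197 CPM in bone marrow cells, 109 CPM in B220+2NBDG+, 89.5 CPM in B220+2NBDG-, 117 CPM in splenic B220-2NBDG+ and 82.4 CPM in B220-2NBDG- cells. The bone marrow library stood clear of all others, while both splenic 2NBDG+ libraries overlapped each other and so did both 2NBDG- libraries. Cd38 (chr5:43868553-43912375) had 1.78 CPM in bone marrow cells, 24.1 CPM in B220+2NBDG+, 25.4 CPM in B220+2NBDG-, 12.9 CPM in splenic B220-2NBDG+ and 23.2 CPM in B220-2NBDG- cells. Its 3 highest libraries overlapped, splenic B220-2NBDG+ cells were below them, and bone marrow cells, with 10 UMIs in all, were lowest.

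The inhibitory lectins were close to the detection limit. Cd22 (chr7:30865402-30880342) had 0 UMIs in bone marrow cells, 5 in B220+2NBDG+, 11 in B220+2NBDG-, 0 in splenic B220-2NBDG+ and 2 in B220-2NBDG- cells. Cd72 (chr4:43446462-43454628) had 0 UMIs in bone marrow cells, 16 in B220+2NBDG+, 28 in B220+2NBDG-, 0 in splenic B220-2NBDG+ and 1 in B220-2NBDG- cells. Detected UMIs of both genes were thus almost all in B220+ libraries, at up to 1.66 CPM for Cd22 and 4.23 CPM for Cd72. A count of 0, taken to allow 3 counts, leaves room for a UMI in up to 0.321% of bone marrow cells and 0.336% of splenic B220-2NBDG+ cells. Cells with at least 3 UMIs over the B cell genes Pax5, Ebf1, Fcer2a, Cr2 and Bank1 numbered 12 in B220+2NBDG+ and 25 in B220+2NBDG- cells, and without such cells Cd72 had 14 UMIs in B220+2NBDG+ and 21 UMIs in B220+2NBDG- cells. Summed levels of 15 other B cell markers came to 3790 CPM (B220+2NBDG+) and 4541 CPM (B220+2NBDG-), and in the 3 B220- libraries to between 2274 and 3073 CPM. The part of cells with such markers in the Cd22 and Cd72 values was not tested.

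**Figure D1:**
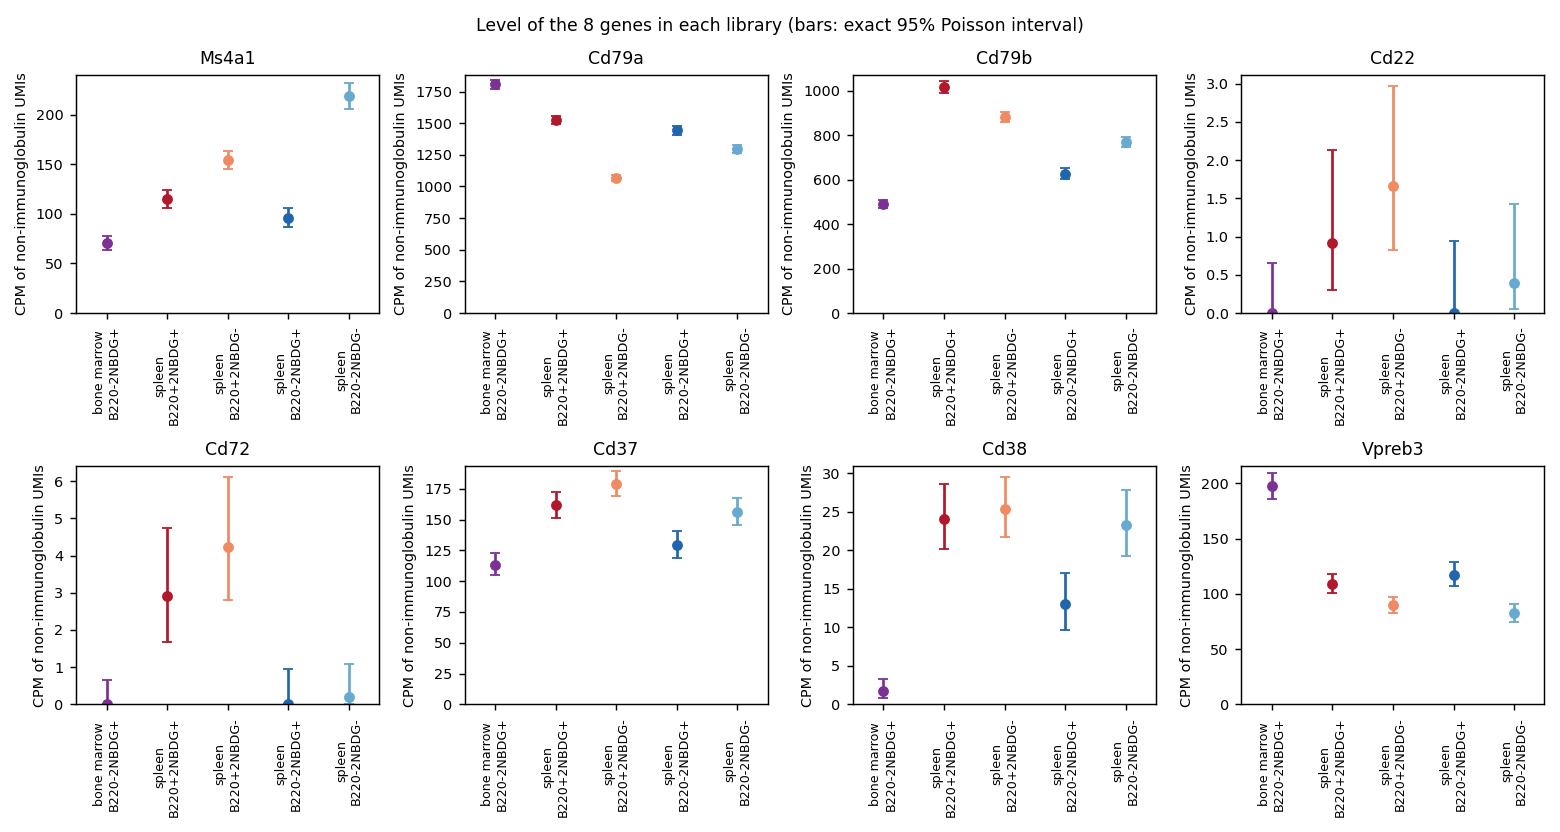
Level of each of the 8 genes (CPM of non-immunoglobulin UMIs, linear axes from 0) in the 5 libraries, 1 point per library with its exact 95% Poisson interval for counting error. Cd79a was highest in bone marrow cells at 1809 CPM and Cd79b lowest there at 491 CPM, Ms4a1 was highest in B220-2NBDG- cells at 219 CPM, and Cd38 was at 1.78 CPM in bone marrow cells.

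Most cells held at least 1 UMI of the receptor pair. Cd79a UMIs were in 99.4% of bone marrow cells, 97.1% of B220+2NBDG+, 93.5% of B220+2NBDG-, 97.4% of splenic B220-2NBDG+ and 92.6% of B220-2NBDG- cells. Cd79b UMIs were in 86.2% to 93.0% of cells, and Ms4a1 UMIs in 22.9% of bone marrow cells up to 46.4% (95% Clopper-Pearson interval 43.6 to 49.1) of B220-2NBDG- cells. Vpreb3 was in 49.3% (46.0 to 52.5) of bone marrow cells, against 26.0% (23.2 to 29.0) of splenic B220-2NBDG+ cells. Cd37 was in 40.5% to 54.0% of cells and Cd38 in 1.07% to 12.8%.

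Depth differed, with a median of 5905 non-immunoglobulin UMIs in bone marrow cells and 3692 in B220-2NBDG- cells, so each cell was also thinned to 1000 such UMIs, which left out between 2 and 13 cells per library. Thinned shares for Cd79b were 38.1% in bone marrow cells, 60.4% in B220+2NBDG+, 57.7% in B220+2NBDG-, 44.4% in splenic B220-2NBDG+ and 52.3% in B220-2NBDG- cells. The order of libraries by thinned Cd79b share matched the order by CPM, whereas the unthinned share in bone marrow cells (90.2%) was above that of splenic B220-2NBDG+ cells (86.2%) despite a lower level. Thinned Ms4a1 shares were 5.89% in bone marrow cells, 10.1% in B220+2NBDG+, 13.2% in B220+2NBDG-, 8.61% in splenic B220-2NBDG+ and 18.8% in B220-2NBDG- cells. Free RNA was gauged in 7 T cell-like barcodes with under 5% immunoglobulin UMIs and a median of 4466 non-immunoglobulin UMIs: 0 of 7, which allows a share of up to 42.9%, held Ms4a1, Vpreb3, Cd22 or Cd38, 1 held Cd79a and 3 held Cd79b, with at most 2 Cd79b UMIs in a barcode. Cd72 was in 2 of these 7 barcodes (28.6%, 3.67 to 71.0), above its share of at most 1.99% of plasma cells. These barcodes therefore cannot gauge free RNA for Cd72, and its UMIs are not read as expression. Cd37, which T cells also express, was in 5. The plasma cell genes Jchain and Sdc1 were in 7 (931 CPM) and 5 (199 CPM) of these barcodes, and Cd79b stood there at 111 CPM.

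Uptake of 2NBDG was compared within each B220 gate. Ms4a1 was 2.28-fold lower in splenic B220-2NBDG+ than in B220-2NBDG- cells (ratio 0.439, 0.390 to 0.494; 378 against 1112 UMIs), and in B220+ cells the ratio of 2NBDG+ to 2NBDG- was 0.746 (0.674 to 0.825), which was not called. That was 1 member called, as lower, of 5 that passed the filter in B220- cells, where 3.02% of all genes passing it were called (0.898% higher, 2.12% lower), and 0 of 6 in B220+ cells, where 5.74% were (1.15% higher, 4.59% lower). Within IgM cells, which made up 62.3% of splenic B220-2NBDG+ and 83.3% of B220-2NBDG- cells, Ms4a1 was again called, at 115 against 248 CPM (ratio 0.463, 0.404 to 0.529). Within IgG cells the ratio was 0.725 (0.510 to 1.03) and within IgA cells 0.797 (0.430 to 1.5), on at most 72 UMIs per library. With cells carrying at least 3 UMIs of those 5 B cell genes left out, the ratio in B220- cells was 0.436 (0.386 to 0.491). That step took out 7 splenic B220-2NBDG+ and 19 B220-2NBDG- cells, and the part of B cells in the ratio was not tested. Scaled to all UMIs, immunoglobulin included, the Ms4a1 ratio was 0.500 and just missed the call, while that in B220+ cells was 0.495 and passed it. By isotype, Ms4a1 in B220+2NBDG+ against B220+2NBDG- cells was at 83.6 against 135 CPM within IgM and 146 against 201 CPM within IgG cells. Within IgA cells it ran the other way, at 73.8 against 41.7 CPM (36 against 17 UMIs).

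Cd79a was at a ratio of 1.43 (1.38 to 1.47) with 2NBDG in B220+ cells and 1.11 (1.08 to 1.15) in B220- cells. Leaving out cycling cells, which were 12 of 1126 B220+2NBDG+ and 170 of 1207 B220+2NBDG- cells, brought the B220+ ratio to 1.17 (1.14 to 1.21). By isotype, the B220+ ratio of Cd79a was 1.15 (1.09 to 1.20) within IgM, 1.67 (1.58 to 1.75) within IgG and 2.11 (1.86 to 2.40) within IgA cells, the last past the call. Cd79b had a ratio of 1.16 (1.11 to 1.20) in B220+ cells, or 1.01 (0.967 to 1.05) without cycling cells, and of 0.813 (0.772 to 0.855) in B220- cells. Vpreb3 had ratios of 1.22 (1.09 to 1.37) in B220+ and 1.42 (1.24 to 1.63) in B220- cells. By isotype the Vpreb3 ratio in B220+ cells was 0.884 (0.641 to 1.21) within IgM, 0.864 (0.746 to 1.0) within IgG and 1.74 (1.28 to 2.38) within IgA cells, and in B220- cells 0.569 (0.443 to 0.726) within IgM, 1.19 (0.719 to 2.02) within IgG and 1.55 (1.26 to 1.93) within IgA cells. IgA cells made up 24.0% of splenic B220-2NBDG+ and 10.5% of B220-2NBDG- cells, and the part of this in the ratios was not tested. Cd37 was within 0.828 to 0.904 in both gates, and Cd38 had ratios of 0.949 (0.750 to 1.20) in B220+ and 0.558 (0.394 to 0.781) in B220- cells. Scaled to all UMIs, the B220+ ratios of Cd79a, Cd79b and Vpreb3 turned to 0.947, 0.768 and 0.808, as the median log2 ratio of all genes moved from -0.17 to -0.76; without Jchain in the total, those of Cd37 and Cd38 turned to 1.01 and 1.06.

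B220 was compared within each 2NBDG gate, and no member was called: 0 of 5 in 2NBDG+ cells, where 3.93% of all genes passing the filter were called (2.45% higher, 1.48% lower), and 0 of 6 in 2NBDG- cells, where 9.12% were (5.94% higher, 3.18% lower). The largest ratio among them was that of Cd79b in 2NBDG+ cells, at 1017 CPM in B220+ against 625 CPM in B220- cells (1.63, 1.55 to 1.71); within IgM cells it was 1.42 (1.33 to 1.52), within IgG cells 1.52 (1.37 to 1.70) and within IgA cells 1.18 (1.02 to 1.36). In 2NBDG- cells the Cd79b ratio was 1.14 (1.10 to 1.19). Ms4a1 had a ratio of 1.20 (1.05 to 1.36) in 2NBDG+ and 0.704 (0.646 to 0.767) in 2NBDG- cells, which differed by isotype. In 2NBDG+ cells it was 0.730 (0.602 to 0.882) within IgM, 1.01 (0.782 to 1.32) within IgG and 2.70 (1.59 to 4.62; 36 against 27 UMIs) within IgA cells, and in 2NBDG- cells 0.545 (0.489 to 0.607) within IgM, 1.0 (0.771 to 1.33) within IgG and 1.22 (0.598 to 2.44) within IgA cells. Cd37 was higher in B220+ cells by ratios of 1.25 (1.12 to 1.40) and 1.15 (1.05 to 1.25) in 2NBDG+ and 2NBDG- cells, and Cd38 had ratios of 1.86 (1.34 to 2.62) in 2NBDG+ and 1.09 (0.859 to 1.40) in 2NBDG- cells. Vpreb3 was at 0.929 (0.822 to 1.05) in 2NBDG+ and 1.09 (0.957 to 1.23) in 2NBDG- cells; within isotypes of 2NBDG- cells it was 0.501 (0.400 to 0.624) in IgM, 2.02 (1.35 to 3.17, called) in IgG and 0.750 (0.545 to 1.02) in IgA cells. Directions in 2NBDG- cells depended on scaling: to all UMIs, the Ms4a1 ratio turned to 1.02 and that of Cd79a, otherwise 0.824, to 1.19, and without Jchain in the total those of Cd79b and Cd37 turned to 0.977 and 0.979. Cd79a in 2NBDG+ cells, at 1.05 (1.02 to 1.09), turned to 0.888 with all UMIs and 0.955 without Jchain.

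The lectins missed the 25 CPM filter. Cd72, for which free RNA could not be gauged, is given by its UMIs alone. It had 16 in B220+ against 0 in B220- cells of the 2NBDG+ gate, and 28 against 1 in the 2NBDG- gate. Within IgM cells the 2NBDG+ comparison gave 10 against 0 UMIs and the 2NBDG- comparison 20 against 1. Cd22 gave 5 against 0 UMIs in 2NBDG+ cells, and in 2NBDG- cells 11 against 2, a ratio without the 3 UMI floor of 4.22 (with it, 2.82) and an interval of 0.922 to 39.2 that includes 1.

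Bone marrow and splenic cells of the B220-2NBDG+ gate differed most in Cd38, at 1.78 CPM in bone marrow against 12.9 CPM in spleen (ratio 0.137, 0.0621 to 0.273; 10 against 51 UMIs). Its level was under the 25 CPM filter, so it was not called by the rule, and it was called at 10 CPM and 20 UMIs. Within IgM cells Cd38 had 4 UMIs in bone marrow against 37 in spleen (ratio 0.140, 0.0361 to 0.389), within IgG cells 1 against 8, and within IgA cells 5 against 6 (ratio 0.266, 0.0642 to 1.05). None of the 5 members that passed the filter was called, where 2.61% of all genes passing it were (1.18% higher, 1.43% lower).

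For the other members the isotype mix moved with the organ: IgA cells were 59.1% of bone marrow and 24.0% of splenic cells, and IgM cells 31.2% of bone marrow and 62.3% of splenic cells; the part of this mix in the ratios was not tested. Vpreb3 was at 197 CPM in bone marrow against 117 CPM in spleen (ratio 1.68, 1.51 to 1.88), yet at 0.921 (0.810 to 1.05) within IgA cells and 0.812 (0.571 to 1.15) within IgM cells; within IgG cells, 84 in bone marrow and 117 in spleen, it was 2.1 (1.48 to 3.0) and was called. Ms4a1 was at a ratio of 0.733 (0.635 to 0.846) in all cells, 1.19 (0.999 to 1.41) in IgM, 1.03 (0.748 to 1.43) in IgG and 0.603 (0.371 to 1.0; 51 against 27 UMIs) in IgA cells. Cd37 was at 0.876 (0.779 to 0.986) in all cells, 1.16 (0.991 to 1.36) in IgM, 0.764 (0.537 to 1.08) in IgG and 0.918 (0.718 to 1.18) in IgA cells. Cd79a was at 1.25 (1.21 to 1.30) in all cells, against 1.05 (0.995 to 1.11) in IgM, 0.906 (0.814 to 1.01) in IgG and 1.07 (1.02 to 1.12) in IgA cells. Cd79b stayed lower in bone marrow, at 0.785 (0.744 to 0.83) in all cells, 0.783 (0.720 to 0.850) in IgM, 0.667 (0.573 to 0.776) in IgG and 0.907 (0.820 to 1.0) in IgA cells.

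**Figure D2:**
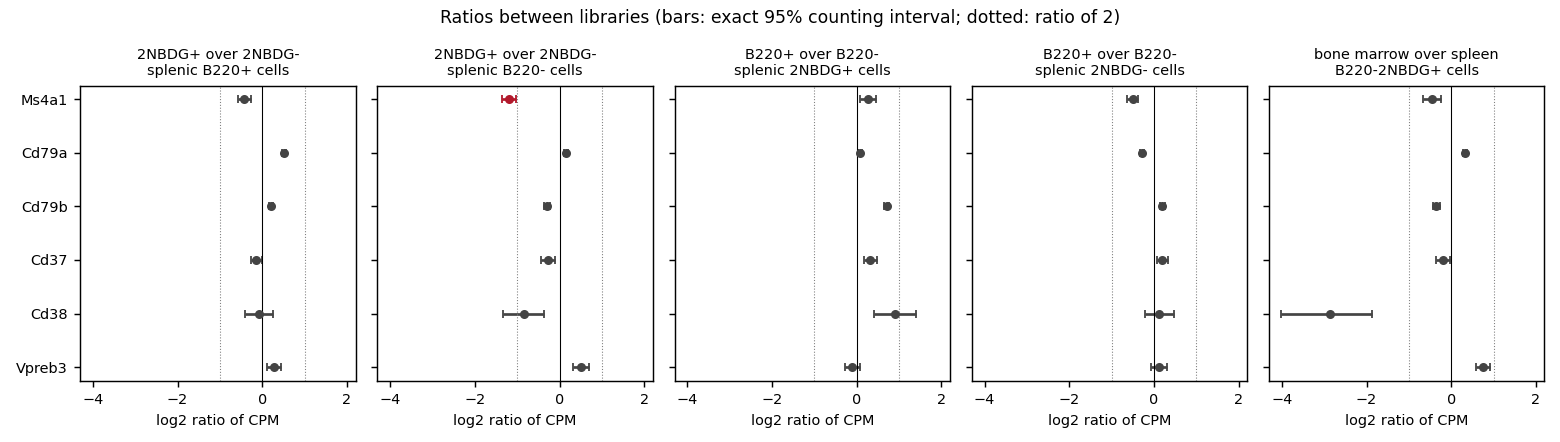
Log2 ratio of CPM for 6 members in the 5 comparisons between libraries, with exact 95% counting intervals; dotted lines mark a ratio of 2 and the red point the call. Ms4a1 in splenic B220- cells, at -1.19, is called, and Cd38 in bone marrow over spleen, at -2.87, lies farthest from 0 but was under the 25 CPM filter.

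Isotypes could be tested across libraries. Isotypes were assigned to cells with 10 or more UMIs of heavy chain constant genes, 70% or more of them from 1 such gene, and UMIs were summed per library and isotype, giving 15 sums of 74 to 1074 cells. Within libraries, edgeR's quasi-likelihood test with the library as a block was run over 8498 genes; 6 members were tested, and Cd22 and Cd72 were filtered out as too low. Whether the libraries share animals is not stated, so the p-values measure the spread between these 5 libraries. Adjusted p-values are by Benjamini-Hochberg over all genes tested.

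In IgA against IgM cells, 4 of the 6 members were called, 1 higher and 3 lower, where 13.1% of all genes were (6.19% higher, 6.92% lower). Vpreb3 had 299, 273, 157, 325 and 209 CPM in IgA cells of bone marrow, B220+2NBDG+, B220+2NBDG-, splenic B220-2NBDG+ and B220-2NBDG- libraries, against 29.9, 28.6, 32.4, 36.8 and 64.7 CPM in their IgM cells. The lowest IgA value was above the highest IgM value, and Vpreb3 rose 6.96-fold (log2 fold change 2.80 ± 0.25 SE, edgeR adjusted p = 2.3e-08, higher in 5 of 5 libraries). Ms4a1 had 16.5, 73.8, 41.7, 27.3 and 34.3 CPM in the same IgA sums, against 136, 83.6, 135, 115 and 248 CPM in the IgM sums. It fell 3.92-fold (-1.97 ± 0.25, adjusted p = 5.0e-06, lower in 5 of 5 libraries), with no overlap, although in B220+2NBDG+ cells the ratio was 0.882 with an interval of 0.599 to 1.27 that includes 1.

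Cd37, the tetraspanin, had 82.7 to 120 CPM in IgA sums, against 142 to 184 CPM in IgM sums, and fell 1.59-fold (-0.67 ± 0.10, adjusted p = 5.9e-05, 5 of 5 libraries). Cd38 rested on 3 to 10 UMIs per IgA sum, against 4 to 99 per IgM sum, and fell 2.13-fold (-1.09 ± 0.26, adjusted p = 0.0050). The receptor pair was not called: Cd79a had a log2 fold change of 0.44 ± 0.17 (adjusted p = 0.091) and Cd79b of -0.02 ± 0.10 (adjusted p = 0.93). Cd79a had 2265, 1803 and 2124 CPM in IgA cells of bone marrow, B220+2NBDG+ and splenic B220-2NBDG+ libraries, against 1251, 1327 and 1191 CPM in their IgM cells. In both 2NBDG- libraries it ran the other way, with 853 and 1151 CPM in IgA cells of B220+2NBDG- and B220-2NBDG- libraries, against 1159 and 1318 CPM in their IgM cells. Without the B220+2NBDG- library the Cd79a difference was called (0.66, adjusted p = 0.0086), as it was without the B220-2NBDG- library (0.61, adjusted p = 0.015).

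In IgG against IgM cells, 1 of the 6 members was called, as higher, where 6.14% of all genes were (2.46% higher, 3.68% lower). Vpreb3 had 198, 139, 161, 94.7 and 79.4 CPM in IgG cells of bone marrow, B220+2NBDG+, B220+2NBDG-, splenic B220-2NBDG+ and B220-2NBDG- libraries and rose 3.53-fold over the IgM values above (1.82 ± 0.26, adjusted p = 7.5e-05, 5 of 5 libraries). Within libraries its ratio ran from 1.23 (0.781 to 1.85) in B220-2NBDG- to 6.63 (4.78 to 9.28) in bone marrow cells. Cd79b was higher in 5 of 5 libraries at 0.30 ± 0.09, with an adjusted p of 0.058 that missed the threshold. It passed without the bone marrow library (0.33, adjusted p = 0.034), and over the 13 alternative settings its adjusted p ran from 0.018 to 0.54. Ms4a1 had 145 to 201 CPM in IgG sums, against 83.6 to 248 CPM in IgM sums (0.25 ± 0.20, adjusted p = 0.57). Cd37 (-0.20 ± 0.10, adjusted p = 0.28), Cd38 (-0.05 ± 0.18, adjusted p = 0.95) and Cd79a (-0.01 ± 0.17, adjusted p = 0.997) did not pass.

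In IgG against IgA cells, 5 of the 6 members were called, 4 higher and 1 lower, where 9.47% of all genes were (4.85% higher, 4.62% lower). Ms4a1 was 4.67-fold higher (2.22 ± 0.27, adjusted p = 3.0e-06), from a ratio of 1.98 (1.41 to 2.88) in B220+2NBDG+ to 9.08 (6.37 to 13.1) in bone marrow cells. Its lowest IgG sum, 145 CPM, was above its highest IgA sum, 73.8 CPM. Cd38 was 2.07-fold (adjusted p = 0.020), Cd37 1.38-fold (adjusted p = 0.0083) and Cd79b 1.26-fold higher (adjusted p = 0.032), each in 5 of 5 libraries. For Cd38 in bone marrow this rested on 1 IgG UMI against 5 IgA UMIs (1.68 against 1.62 CPM). Vpreb3 was 1.97-fold lower in IgG cells (-0.98 ± 0.25, adjusted p = 0.010), in 4 of 5 libraries.

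The 4 smaller IgG against IgA calls were lost when certain single libraries were left out, with folds in the same direction. Vpreb3 lost its call without B220+2NBDG+ cells (-0.93, adjusted p = 0.066) and without splenic B220-2NBDG+ cells (-0.74, adjusted p = 0.11). Cd38 lost it without B220+2NBDG+ (adjusted p = 0.12), B220+2NBDG- (0.16) or splenic B220-2NBDG+ cells (0.068), at log2 fold changes of 0.94, 0.86 and 1.05. Cd37 lost it without B220+2NBDG+ (adjusted p = 0.059) or B220+2NBDG- cells (0.056), at 0.45 and 0.42. Cd79b lost it without any 1 of the 4 splenic libraries, with an adjusted p of 0.25 without B220+2NBDG+, 0.079 without B220+2NBDG-, 0.095 without splenic B220-2NBDG+ and 0.096 without B220-2NBDG- cells, at log2 fold changes of 0.24, 0.34, 0.35 and 0.29. Ms4a1 stayed below 0.05 in all 13 alternatives, as did Ms4a1, Cd37 and Vpreb3 in IgA against IgM cells and Vpreb3 in IgG against IgM cells.

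**Figure D3:**
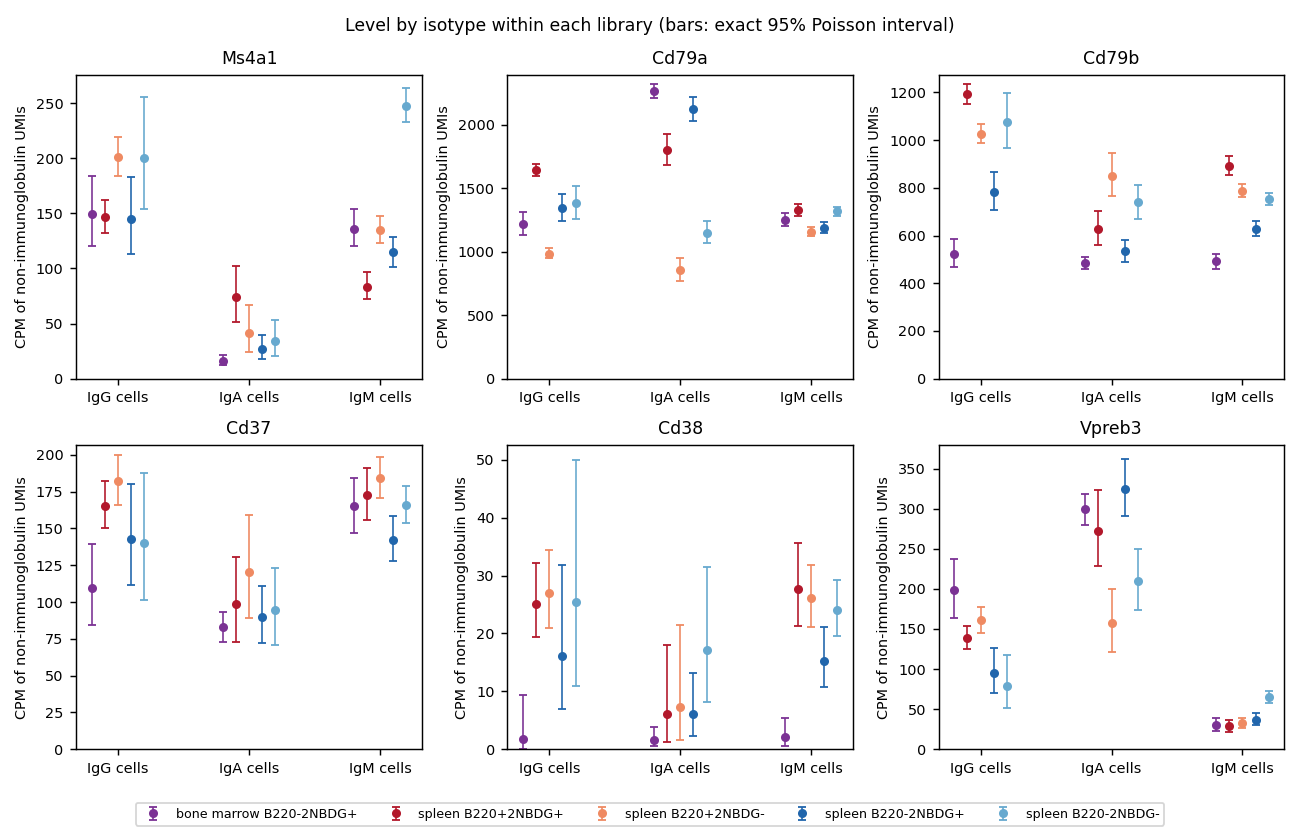
Level (CPM of non-immunoglobulin UMIs, linear axes from 0) of 6 members in IgG, IgA and IgM cells of each library, 1 colour per library, with exact 95% Poisson intervals. Vpreb3 lies at 157 to 325 CPM in IgA cells of all 5 libraries and at 28.6 to 64.7 CPM in IgM cells, while Ms4a1 lies at 16.5 to 73.8 CPM in IgA and 83.6 to 248 CPM in IgM cells.

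**Figure D4:**
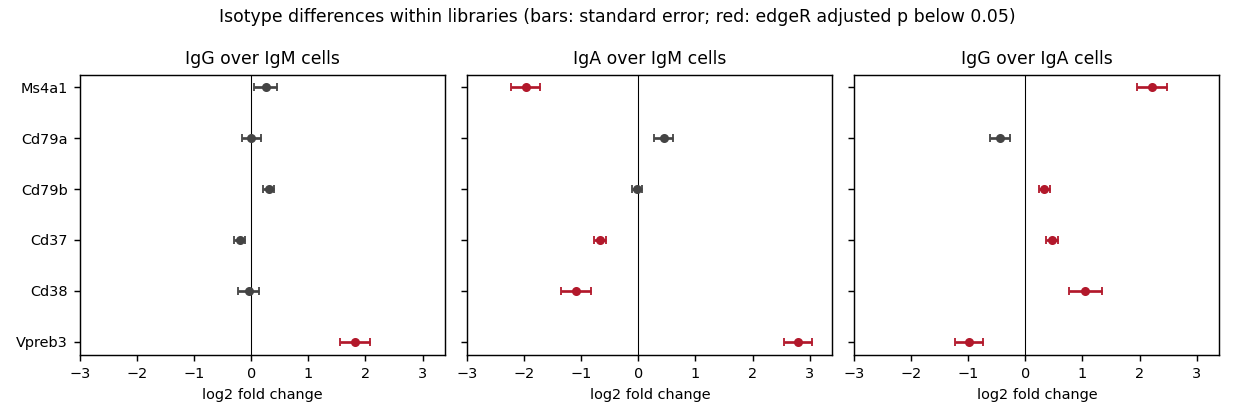
Log2 fold change from edgeR with its standard error for 6 members in 3 isotype comparisons over 5 libraries; red marks an adjusted p below 0.05. Vpreb3 is at 1.82 in IgG over IgM, 2.80 in IgA over IgM and -0.98 in IgG over IgA cells, and Cd79a is not called in any of them.

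The balance of the receptor pair differed between isotypes and libraries. In IgA cells there were 4.67 Cd79a UMIs per Cd79b UMI in bone marrow (4.42 to 4.95), 3.97 in splenic B220-2NBDG+ (3.61 to 4.38) and 2.87 in B220+2NBDG+ cells (2.51 to 3.27). In B220+2NBDG- and B220-2NBDG- IgA cells it was 1.0 (0.862 to 1.17) and 1.56 (1.38 to 1.76), so the 3 2NBDG+ libraries were the high ones. IgM cells ran from 1.47 in B220+2NBDG- to 2.55 in bone marrow, and IgG cells from 0.961 in B220+2NBDG- to 2.33 in bone marrow. Bone marrow was highest within each isotype. The ratio compares samples; it is not a ratio of transcript numbers, since capture can differ between genes.

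**Figure D5:**
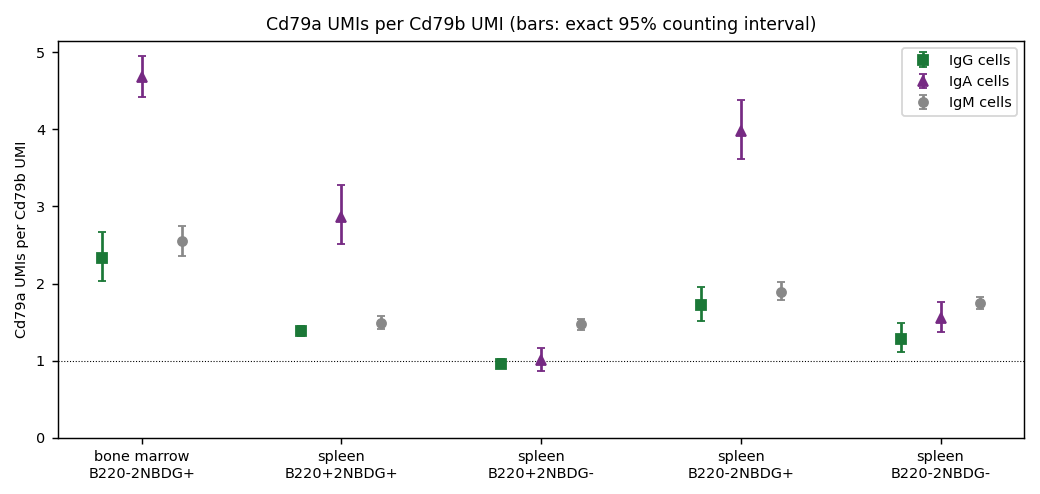
Cd79a UMIs per Cd79b UMI in IgG, IgA and IgM cells of each library, with exact 95% counting intervals; the dotted line marks equal counts. IgA cells of bone marrow (4.67), splenic B220-2NBDG+ (3.97) and B220+2NBDG+ cells (2.87) lie highest, and the interval of the last (2.51 to 3.27) overlaps that of bone marrow IgM cells (2.36 to 2.75).

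IgG subclasses were looked at where a library held at least 10 such cells. Vpreb3 had 45.5, 93.7, 28.8 and 31.7 CPM in IgG3 cells of B220+2NBDG+, B220+2NBDG-, splenic B220-2NBDG+ and B220-2NBDG- libraries. In IgG2c cells of those libraries it had 140, 162, 122 and 120 CPM, so each IgG3 value was below its IgG2c value. In IgG2b cells it had 169, 190, 64.6 and 53.9 CPM, and in the 3 libraries with enough IgG1 cells 192 to 219 CPM. In bone marrow IgG cells Vpreb3 had 217 CPM in IgG1, 202 CPM in IgG2b and 185 CPM in IgG2c cells. Cd79b in the same 4 libraries had 1253, 1034, 1139 and 1140 CPM in IgG3 against 1213, 1013, 683 and 1123 CPM in IgG2c cells, and the counting intervals were apart in splenic B220-2NBDG+ cells alone (901 to 1419 against 580 to 798 CPM). The IgG3 values of both B220- libraries rest on 2 Vpreb3 UMIs each, and subclasses were not tested.

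In B220+2NBDG- cells, 170 of 1207 cells were cycling, by at least 3 UMIs of 31 cell cycle genes per 1000 non-immunoglobulin UMIs; 16 cells lay within 1 UMI of that limit. Cd79a had 438 CPM in cycling and 1313 CPM in the other cells (ratio 0.334, 0.310 to 0.359), and Cd79b 516 and 1021 CPM (0.505, 0.471 to 0.541). Ms4a1 (0.648, 0.554 to 0.756), Cd37 (0.640, 0.552 to 0.738), Cd38 (0.469, 0.296 to 0.716) and Vpreb3 (0.520, 0.415 to 0.645) also lay below 1, whereas the median ratio of 4255 genes was 1.19. The lectins had too few UMIs to place, with 1 Cd22 UMI in cycling and 10 in other cells (0.256, 0.00590 to 1.80), and 8 and 20 Cd72 UMIs (1.02, 0.390 to 2.43). Cycling cells had a median of 9935 non-immunoglobulin UMIs against 4222 in the others, 25.1% against 52.4% immunoglobulin UMIs, and IgG in 43.5% against 33.1% of cells; the part of these in the ratios was not tested.

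Other genes of the B cell receptor pathway were read from 6 lists. Over all genes tested, 2.46% were higher and 3.68% lower in IgG against IgM, 6.19% higher and 6.92% lower in IgA against IgM, and 4.85% higher and 4.62% lower in IgG against IgA cells, and the counts below stand beside these shares. Of 14 B cell surface partners, 12 were tested by isotype: in IgA against IgM cells 0 rose and 5 fell (Cd81, Cd40, Fcmr, Cd52 and Cd83), with a median log2 fold change of -0.81 beside -0.01 for all genes. In IgG against IgA cells 6 rose and 1 fell (median 0.55), among them Cd52, which encodes a small glycoprotein of lymphocytes, at 2.27-fold (adjusted p = 0.0016). In IgG against IgM cells 1 rose and 2 fell (median -0.20). Of 12 tetraspanins, 11 were tested, and in IgA against IgM cells 1 rose and 4 fell (median -0.69), with Cd9, Cd81, Cd82 and Tspan31 the lower ones; in IgG against IgA cells 4 rose and 0 fell, and in IgG against IgM cells 0 rose and 1 fell. Cd81, a tetraspanin of the B cell membrane, is in both lists.

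Of 22 signalling genes below the receptor, 17 were tested; 1 rose and 3 fell in IgG against IgM, 2 rose and 3 fell in IgA against IgM, and 3 rose and 2 fell in IgG against IgA cells. Blnk, the adaptor that links Syk to downstream enzymes, rose in IgG cells 1.42-fold over IgM (adjusted p = 0.0062) and 1.58-fold over IgA cells (adjusted p = 0.00071). Lyn, the kinase that phosphorylates the receptor tails, was 1.61-fold lower in IgG than IgM cells (adjusted p = 0.020). Syk and Btk, the kinases acting after Lyn, did not pass in any of the 3, with adjusted p-values of at least 0.455 and 0.0680. Of 14 inhibitory partners, 9 were tested; 1 rose and 2 fell in IgG against IgM, 2 rose and 3 fell in IgA against IgM, and 1 rose in IgG against IgA cells. Ptpn6, the phosphatase recruited by CD22 and CD72, fell 4.69-fold in IgG against IgM (adjusted p = 2.8e-09) and 3.55-fold in IgA against IgM cells (adjusted p = 9.0e-09), in 5 of 5 libraries each, and Fcgr2b, the inhibitory Fc receptor, did not pass (adjusted p of at least 0.709).

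Ptprc, the gene of the sorted B220 protein, had 39.1 to 79.7 CPM and Sdc1 did not differ by isotype at the threshold (adjusted p of at least 0.833). Of 6 genes of the precursor B cell receptor, 1 was tested and none called, and their summed level was 2.28 to 6.68 CPM. Of 8 NAD enzyme genes, 6 were tested, and 1, Nadk, fell in IgA against IgM cells.

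Between libraries, the 6 lists together held 74 genes that are not members. With 2NBDG, 1 of 32 that passed the filter was called in B220+ cells, where 5.74% of all genes were, and 3 of 30 in B220- cells, where 3.02% were. With B220, 3 of 30 were called in 2NBDG+ cells (3.93% of all genes) and 5 of 33 in 2NBDG- cells (9.12%), and 3 of 25 in bone marrow over spleen (2.61%). Cd52 was called in all 5 comparisons, which share libraries: with 2NBDG it was 2.25-fold lower in B220+ and 2.35-fold lower in B220- cells, with B220 2.76-fold and 2.64-fold higher in 2NBDG+ and 2NBDG- cells, and in bone marrow 2.93-fold higher. With 2NBDG in B220- cells, where Ms4a1 was called, Cd83 was 2.44-fold and Blk, a kinase of the Src family, 2.95-fold lower. With B220, Fcmr (the IgM Fc receptor, 2.06-fold) and Fcrl1 (2.41-fold) were higher in 2NBDG+ cells, and Siglecg, a relative of CD22, was 2.43-fold higher in 2NBDG- cells, where Ptpn6 was 2.12-fold, Cd83 2.17-fold and Tspan32 2.31-fold lower. In bone marrow, Fcmr was 3.66-fold and Cd9 2.39-fold lower than in spleen. None of the precursor B cell receptor or NAD enzyme genes was called between libraries.

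Likeness of pattern was measured by Pearson's r of log2(CPM + 10) over the 15 library by isotype sums, against 3517 genes with a mean of at least 25 CPM; sums of 1 library share its depth and cells, so r is a description. Vpreb3 was most like Ebf1, a B lineage transcription factor (r = 0.817), followed by Mllt3 (0.797) and Bst2 (0.792). Ms4a1 was most like Pmf1 (0.925), Chst1 (0.890) and Cd74, the invariant chain of MHC class II (0.887). Cd37 was most like H2-Q6 (0.967), Cmpk1 (0.925) and Iqcb1 (0.917), and Cd79b most like Il16 (0.944), H2-Ob (0.933) and Sh3glb1 (0.924). Cd38 was most like Dnajb6 (0.925), Il16 (0.921) and Ufl1 (0.917), and Cd79a most like Selenow (0.915), Pqlc3 (0.848) and Gm5914 (0.795). Among the 6 members with enough UMIs, Cd79b and Cd38 (0.848) and Ms4a1 and Cd37 (0.793) were the most alike, and Cd37 and Vpreb3 the most opposed (-0.789). Cd79a and Cd79b had r = -0.375. Ebf1 rose in IgA against IgM cells 2.70-fold (edgeR adjusted p = 2.8e-05). It was picked for its likeness to Vpreb3 over the same sums, so this adds no separate agreement. In IgG against IgM cells, where Vpreb3 was called, Ebf1 was not. Of 15 B cell markers outside the members, 8 were tested in IgA against IgM cells. There 1 (Ebf1) rose and 3 (Bank1, Fcmr and Blk) fell, beside 6.19% higher and 6.92% lower of all genes. Their median log2 fold change was -0.48. Cd22 and Cd72, at means of 0.504 and 1.28 CPM, are not compared.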

How the data were processed

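Single cells of 5 sorted plasma cell groups were profiled with 10x Chromium 3′ v2 chemistry, 1 library per group, per the labels' protocols. The authors deposited raw UMI counts per gene and barcode; these counts came from Cell Ranger 2.1 and genome build GRCm38, per the submitters' processing notes. The sources used here name neither a barcode filter nor a gene annotation; gene positions are from GENCODE M21 on GRCm38, which holds 32655 of the 33456 deposited gene IDs.

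UMIs were summed per library, and per library and heavy chain isotype. The 25 barcodes with at least 3 T cell receptor or CD3 UMIs were left out; no doublet caller was run, and cells of high UMIs or mixed isotypes were left out as alternatives. Levels are CPM, counts per 1000000 non-immunoglobulin UMIs. Libraries were compared by ratios with exact 95% conditional binomial intervals, shares by Clopper-Pearson intervals; both cover counting error only. A count under 3 UMIs was set to 3 in ratios, save where a ratio is given as without the floor; intervals use the counts themselves.

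Isotypes were tested with edgeR 4.0.16 in R 4.3.3 (glmQLFit, glmQLFTest, filterByExpr, TMM, library as a block, immunoglobulin genes left out), called at an adjusted p of 0.05, with DESeq2 1.42.0 as an alternative; keeping the immunoglobulin genes, and leaving out cells with UMIs of 5 B cell genes, were alternatives added after seeing the data. Ratios and fits were tested on simulated data. Other steps used Python 3.11.15, numpy 2.4.6, scipy 1.17.1 and pandas 2.3.3. The members and lists were chosen with earlier results of these data known. Named are the 8 members, pathway list genes called between libraries, 9 receptor pathway genes fixed by name, of which 1 is not reported here, and the genes most like each member.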

Additional observations from a re-analysis of the deposited data

Results flagged for a closer look

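Cd38 in IgG against IgM cells had a log2 ratio of 1.24 in bone marrow cells, far from the 4 splenic libraries, which lay between -0.14 and 0.08. That value compares 1 UMI, raised to the floor of 3 UMIs, with 4 UMIs, and its interval as a ratio was 0.0160 to 7.95. Without the floor the direction is the opposite, with 1.68 CPM in IgG against 2.14 CPM in IgM cells of bone marrow. Among groups of this size the criterion marks about 1 in 20 by chance.

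Cd79b had a 2NBDG log2 ratio of 0.21 in B220+ and of -0.30 in B220- cells, on opposite sides of 0. Ms4a1 had a B220 log2 ratio of 0.26 in 2NBDG+ and of -0.51 in 2NBDG- cells. Cd79a had a B220 log2 ratio of 0.077 in 2NBDG+ and of -0.28 in 2NBDG- cells. Each of these differences rests on 1 library per group and was not tested, and in each pair at least 1 sign turned under another scaling. In each comparison the lower library was B220+2NBDG- or splenic B220-2NBDG+ cells, those that Rps18-ps3 set apart. The opposite signs therefore cannot be told apart from that split.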

How the results depend on the processing

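No paired analysis was possible because each group is 1 library and the labels carry no replicate numbers; the isotype test has the library as a block. Genes called between libraries numbered 229 with 2NBDG in B220+ cells, 111 with 2NBDG in B220- cells, then 146 with B220 among 2NBDG+ cells, 367 with B220 among 2NBDG- cells, and 91 in bone marrow over spleen. Scaled to all UMIs they were 718, 62, 82, 831 and 58; at 10 CPM and 20 UMIs 413, 232, 302, 670 and 191; at a ratio of 1.5 they were 717, 265, 476, 1100 and 298. Without cycling cells, 2NBDG in B220+ gave 97 and B220 in 2NBDG- 215, and by each cell's mean CPM 2NBDG in B220+ gave 143. Within IgA cells 2NBDG in B220- gave 278, B220 in 2NBDG+ 58 and B220 in 2NBDG- 69, and within IgG cells 2NBDG in B220- gave 48. The split of higher and lower calls moved with scaling: 46 and 183 for 2NBDG in B220+ became 8 and 710 with all UMIs and 88 and 158 without Jchain; 33 and 78 for 2NBDG in B220- became 32 and 30 with all UMIs; 91 and 55 for B220 in 2NBDG+ became 32 and 50 with all UMIs, 82 and 96 without Jchain and 81 and 74 with TMM; 239 and 128 for B220 in 2NBDG- became 807 and 24, 173 and 221, and 180 and 145 in that order; 41 and 50 in bone marrow became 21 and 37 with all UMIs and 54 and 33 with TMM. For IgG over IgM, IgA over IgM and IgG over IgA cells, edgeR called 522, 1114 and 805 genes, DESeq2 182, 643 and 481, edgeR with no library block 66, 388 and 307, and edgeR with each library left out 236 to 549, 876 to 1021 and 518 to 752. The cause of these changes was not tested.

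Of the members' isotype folds under the alternatives, 206 stayed on their side of the threshold, 18 lost a call and 10 gained one, and no called fold reversed. Of the members' log2 ratios between libraries, 324 stayed within their counting error and 130 moved beyond it, as did 32 of their levels and 102 of their shares of positive cells, against 8 and 18 that stayed within it. With no library block, Cd38 lost its IgA over IgM call (adjusted p = 0.202), and Cd38 (0.250), Cd79b (0.306) and Vpreb3 (0.0724) lost theirs in IgG over IgA cells; DESeq2 gave 0.0669 for Cd38 and 0.109 for Cd79b there, and keeping immunoglobulin genes 0.0933 for Cd79b. Cd22, Cd72 and bone marrow Cd38 are limited by depth, with 28 UMIs or fewer per library.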

Other observations

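Sdc1, which encodes CD138, in cells with and without a Ms4a1 UMI was at 616 against 606 CPM in bone marrow cells, 513 against 557 CPM in B220+2NBDG+, 363 against 440 CPM in B220+2NBDG-, 536 against 544 CPM in splenic B220-2NBDG+ and 488 against 473 CPM in B220-2NBDG- cells. Vpreb3 was at 131 against 221 CPM in Ms4a1-positive and Ms4a1-negative bone marrow cells, and at 131 against 48.2 CPM in B220+2NBDG- cells. It was at 157 against 79.2 CPM in B220+2NBDG+, 88.0 against 129 CPM in splenic B220-2NBDG+ and 86.3 against 78.3 CPM in B220-2NBDG- cells. Isotypes were not kept apart in these values. A cell with more UMIs is more often Ms4a1-positive, and none of these differences was tested.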
